A study of Mus musculus with 13 samples.

Results

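Schwann cells, the glia that wrap peripheral axons, descend from the neural crest, and the 6 genes described here mark that lineage: Sox10, Foxd3, Erbb3, Fabp7, Cdh19 and S100b. They were taken by name from the 18193 genes that the array annotation names by 1 symbol, and all of their probe sets were used, 10 of the 45037 tested. Sox10 was read by 3 probe sets, Erbb3 and S100b by 2 each, and Foxd3, Fabp7 and Cdh19 by 1 each. RNA of presumptive intervertebral disc (IVD) and vertebrae was laser captured from the lumbar region of E13.5 mouse embryos and measured on 13 arrays. Mutant IVD (4 arrays, genotype Cre+;Tgfbr2lox/lox) and mutant vertebrae (3 arrays, labelled Cre+;Tgrbr2lox.lox) came from embryos in which exon 2 of Tgfbr2, the type II TGF-β receptor, was floxed on each allele and Cre was driven by the Col2a promoter, which acts in sclerotome and cartilage. Control IVD (3 arrays) and control vertebrae (3 arrays) came from the same mice, labelled Cre-;Tgfbr2lox/wt, so that the controls carried no Cre and 1 floxed allele. Some notochord was taken along with the annulus fibrosus precursors of the IVD, and at this stage nerve roots and ganglia lie beside both tissues.

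In the migrating neural crest, the transcription factors Foxd3 and Sox10 are expressed early, and Sox10 is kept in glia and melanoblasts. Sox10 activates Erbb3, the receptor through which axonal neuregulin keeps Schwann cell precursors alive. Fabp7, a fatty acid binding protein also found in radial glia of the spinal cord, and Cdh19, a cadherin, mark Schwann cell precursors. S100b encodes a calcium-binding protein of maturing Schwann cells, and it is also made by chondrocytes, in which SOX5, SOX6 and SOX9 drive it.

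On mouse build GRCm38.p6 the genes lie on different chromosomes, except that Fabp7 (chr10:57784923-57788450), S100b (chr10:76253836-76261319) and Erbb3 (chr10:128567523-128589635) share chromosome 10. Sox10 lies at chr15:79154913-79164490, Foxd3 at chr4:99656299-99658671 and Cdh19 at chr1:110888002-110977601. Promoters, taken as the 250 bases before the start of the gene in RefSeq, were matched for 3 of the 6 genes, Foxd3, Fabp7 and S100b. Those of Fabp7 and S100b are shown because these genes are set beside different tissue markers below, Fabp7 beside neuronal and S100b beside cartilage transcripts. Both strands were searched for the SOX letters ACAAAG and ACAAT. Capitals mark a match, here ATTGT, which reads ACAAT on the other strand.
Fabp7, chr10:57784673-57784922, plus strand: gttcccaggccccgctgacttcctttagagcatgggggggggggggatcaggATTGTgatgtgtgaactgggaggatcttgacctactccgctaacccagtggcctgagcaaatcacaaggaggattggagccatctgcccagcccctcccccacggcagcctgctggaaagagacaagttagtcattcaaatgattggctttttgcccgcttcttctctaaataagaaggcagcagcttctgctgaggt
S100b, chr10:76253586-76253835, plus strand: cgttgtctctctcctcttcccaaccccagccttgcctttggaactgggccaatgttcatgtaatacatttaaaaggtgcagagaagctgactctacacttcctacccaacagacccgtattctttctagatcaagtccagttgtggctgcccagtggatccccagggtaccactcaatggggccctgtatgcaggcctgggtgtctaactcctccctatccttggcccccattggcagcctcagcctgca
The Fabp7 window held 1 match, at -198 from the start, and the windows of S100b and Foxd3 held none. Of all 32851 promoters of that length, 27.7% held ACAAT and 16.5% held ACAAAG, so a match is a common event.

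Each value is a log2 signal relative to the median of that probe set over the 13 arrays, so a value of 0 is the middle array and a step of 1 is a doubling. The values hold no level of expression, and whether a gene was above background is unknown. In bulk tissue of this kind, fewer cells of a type and less RNA per cell cannot be told apart. Several arrays carried transcripts of neighbouring tissues. Mutant IVD 3 and control vertebrae 3 were rich in neuronal transcripts, with list means over 16 genes of 2.97 and 2.18 where the other arrays had at most 0.55. Mutant IVD 3, mutant IVD 4, control IVD 1 and control vertebrae 1 carried liver transcripts, at 2.78 to 5.48 as a mean of 8 genes. Mutant IVD 4 and control IVD 1 also carried skeletal muscle transcripts, at 2.55 and 2.29 as a mean of 10 genes. The other arrays had at most 0.61. Mutant IVD 3 also had the lowest mean of 8 disc genes of all 13 arrays, -1.41. The other mutant IVD arrays had 0.59 to 1.44, and mutant vertebrae had -1.26 to -0.38. Matn1, a cartilage gene, was 0.60 in mutant IVD 3, against -3.71 to -2.23 in the other IVD arrays and 0.00 to 1.75 in vertebrae. Which tissue that array holds was not tested. Mutant vertebrae 1 had the widest spread of values over all probe sets (SD 0.743). Xist, the transcript of the inactive X chromosome, lay between -0.04 and 1.81 in the 6 control arrays and in 2 mutant arrays (mutant IVD 3 and mutant vertebrae 3) and was at most -5.83 in the other 5, so genotype and sex overlapped in part and cannot be fully told apart. The 3 probe sets of Tgfbr2 differed by 0.25, -0.02 and 0.10 between mutant and control IVD and by 0.13, -0.01 and -0.84 between mutant and control vertebrae. None of these passed the test, and whether the probes lie in the deleted exon was not analysed here.

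None of the 10 probe sets passed the test in any comparison, at an adjusted p under 0.05 by limma over all probe sets. The background share called in this way was 0% of all probe sets in mutant against control IVD, in mutant against control vertebrae, in control IVD against control vertebrae and for the difference of the genotype effect between the tissues (the interaction), and 0.0155% in mutant IVD against mutant vertebrae. At an unadjusted p under 0.05 limma gave 0 of the 10 in mutant against control IVD, where 3.13% of all probe sets reached it in either direction. It gave 1 in mutant against control vertebrae (Cdh19, higher), where 1.74% of all probe sets were higher at that p and 1177 of 45037 reached it in either direction. It gave 0 in control IVD against control vertebrae (2.45% in either direction) and 0 for the interaction (1.37% in either direction). In mutant IVD against mutant vertebrae 3 reached it, Cdh19 and both S100b probe sets, all lower. There 3.72% of all probe sets were lower at that p and 3634 of 45037 reached it in either direction. The 2 S100b probe sets read 1 gene. The genes differed in how much they varied. The SD over the 13 arrays was 1.27 for Fabp7, 0.96 for Cdh19 and 0.98 and 0.97 for S100b, each within the top 3% of all probe sets, against 0.31 for Foxd3, 0.22 to 0.68 for Sox10 and 0.76 and 0.26 for the 2 Erbb3 probe sets.

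**Figure D1:**
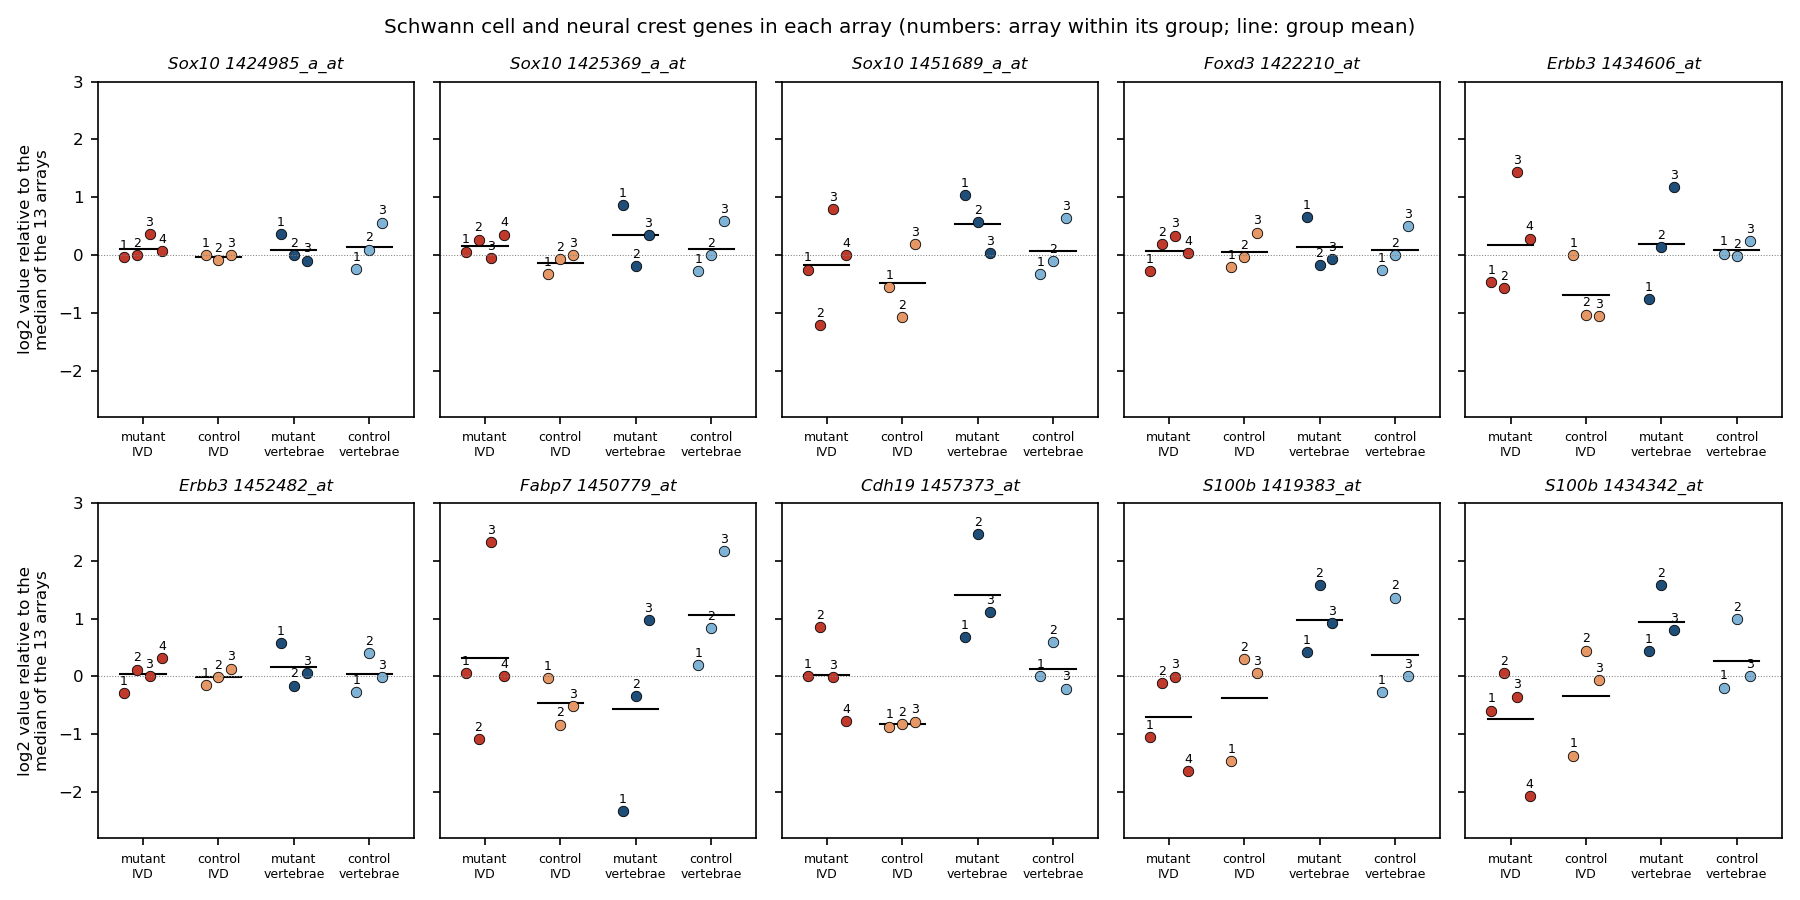
Log2 value of each probe set relative to its median (vertical axis) in each of the 13 arrays, by group (horizontal axis), with a line at the group mean. Fabp7, Cdh19 and S100b span the widest ranges, and the 3 control IVD arrays sit together at -0.87 to -0.78 for Cdh19. Foxd3 and 2 of the 3 Sox10 probe sets span narrower ranges, up to 0.65 for Foxd3 and 0.86 for Sox10.

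Sox10, the transcription factor at the head of the glial programme, varied less in 2 of its 3 probe sets than in the other. In probe set 1451689_a_at, the most variable, it had values of -0.26, -1.21, 0.79 and 0.00 in mutant IVD, against -0.56, -1.08 and 0.18 in control IVD. The same probe set had 1.03, 0.57 and 0.03 in mutant vertebrae, against -0.33, -0.11 and 0.63 in control vertebrae. The groups overlapped within each tissue and within each genotype. The means were -0.17 ± 0.83 in mutant IVD, -0.49 ± 0.63 in control IVD, 0.54 ± 0.51 in mutant vertebrae and 0.06 ± 0.51 in control vertebrae (SD). Ordered by level, no neighbouring groups differed by more than their spread. The difference between mutant and control IVD was 0.32 (standard error 0.45), and without mutant IVD 3 it was -0.0039, so its direction rested on that array. Mutant against control vertebrae differed by 0.48 (standard error 0.48) and mutant IVD against mutant vertebrae by -0.71 (standard error 0.45, adjusted p = 0.738 by limma). Mutant IVD 3 (0.79) was the highest IVD array in this last comparison too. Over the alternative fits described below the last difference ran from -1.28 to -0.35.

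The other Sox10 probe sets, 1424985_a_at and 1425369_a_at, ran from -0.25 to 0.56 and from -0.34 to 0.86 over the 13 arrays. In both the highest arrays were mutant vertebrae 1 (0.36 and 0.86) and control vertebrae 3 (0.56 and 0.59). The 3 Sox10 probe sets correlated with each other over the 13 arrays with r = 0.61, 0.67 and 0.42. Their differences between mutant and control IVD were 0.13 and 0.29 (standard errors 0.20 and 0.26), and between mutant and control vertebrae -0.05 and 0.24 (standard errors 0.21 and 0.28).

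Foxd3, which specifies early neural crest and is lowered as Schwann cells mature, had values of -0.28, 0.19, 0.33 and 0.03 in mutant IVD, against -0.21, -0.03 and 0.39 in control IVD. In mutant vertebrae it had 0.65, -0.18 and -0.07, against -0.26, 0.00 and 0.50 in control vertebrae. The 4 groups covered the same range. The difference was 0.02 (standard error 0.26) between mutant and control IVD and 0.05 (standard error 0.28) between mutant and control vertebrae. The highest Foxd3 value came from mutant vertebrae 1, the array with the widest spread over all probe sets, whose part in this value was not tested.

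Erbb3, the kinase-impaired partner of ERBB2 that binds neuregulin, varied in 1 of its 2 probe sets. In 1434606_at it had values of -0.48, -0.57, 1.43 and 0.28 in mutant IVD, against 0.00, -1.03 and -1.06 in control IVD. In mutant vertebrae it had -0.77, 0.14 and 1.17, against 0.02, -0.02 and 0.24 in control vertebrae. Mutant IVD 3 and mutant vertebrae 3 were the high arrays, and the groups overlapped in all 4 comparisons. The means were 0.17 ± 0.92 in mutant IVD, -0.70 ± 0.60 in control IVD, 0.18 ± 0.97 in mutant vertebrae and 0.08 ± 0.14 in control vertebrae (SD). Control IVD was lowest, and the other 3 groups differed by less than their spread. The difference between mutant and control IVD was 0.86 (standard error 0.52), and 0.44 without mutant IVD 3. Between mutant and control vertebrae it was 0.10 (standard error 0.55), and -0.39 without mutant vertebrae 3. In the control mice, with arrays of the same number taken as 1 mouse, IVD minus vertebrae was -0.02, -1.01 and -1.30. With the mouse as a random block limma gave -0.78 (standard error 0.25, adjusted p = 0.355). The second probe set, 1452482_at, ran only from -0.29 to 0.58, and the probe sets correlated with r = -0.15. The group values of Erbb3 therefore depend on which probe set is read.

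Fabp7 had the widest range of the 6 genes. It had values of 0.06, -1.08, 2.32 and 0.00 in mutant IVD, against -0.03, -0.84 and -0.52 in control IVD. In mutant vertebrae it had -2.33, -0.35 and 0.98, against 0.19, 0.84 and 2.17 in control vertebrae. Mutant IVD 3 and control vertebrae 3 stood highest, and these are the arrays with the most neuronal transcripts (2.97 and 2.18), whose part in the result was not tested. Control IVD was below control vertebrae with no overlap, and 3.9% of all probe sets had control IVD wholly below control vertebrae. The control means were -0.46 ± 0.41 in IVD and 1.07 ± 1.01 in vertebrae (SD, n = 3 each), a difference of -1.53 (standard error 0.89). In the 3 control mice IVD minus vertebrae was -0.22, -1.68 and -2.69, and with the mouse as a random block the standard error was 0.43 and limma gave an adjusted p of 0.297. Without mutant IVD 3 and control vertebrae 3 the difference was -0.98 (standard error 0.77).

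For genotype, the Fabp7 differences had opposite signs in the tissues. Mutant IVD averaged 0.32 ± 1.43 (SD, n = 4) and control IVD -0.46 ± 0.41, a difference of 0.78 (standard error 0.83) that was 0.12 without mutant IVD 3. Mutant vertebrae averaged -0.57 ± 1.66 and control vertebrae 1.07 ± 1.01 (SD, n = 3 each), a difference of -1.63 (standard error 0.89, adjusted p = 0.998 by limma). This was -0.75 without mutant vertebrae 1, the array at -2.33. The interaction was 2.41 (standard error 1.22) and it did not pass the test. Without the arrays rich in neuronal transcripts it was 1.20 (standard error 1.04). In order, the group means were control vertebrae, mutant IVD, control IVD and mutant vertebrae, and no neighbours differed beyond their spread.

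Cdh19 had the lowest and tightest values in control IVD. It had values of 0.00, 0.85, -0.01 and -0.78 in mutant IVD, against -0.87, -0.82 and -0.78 in control IVD. In mutant vertebrae it had 0.68, 2.46 and 1.11, against 0.00, 0.59 and -0.21 in control vertebrae. Mutant vertebrae were above control vertebrae with no overlap, as were 3.63% of all probe sets. Mutant IVD was above control IVD with no overlap, as were 3.68% of all probe sets, although mutant IVD 4 exceeded control IVD 3 by less than the rounding of the values printed here. Control IVD was below control vertebrae with no overlap, as were 3.9% of all probe sets. The means were 0.02 ± 0.66 in mutant IVD, -0.82 ± 0.04 in control IVD, 1.42 ± 0.93 in mutant vertebrae and 0.13 ± 0.42 in control vertebrae (SD). Mutant vertebrae were highest and control IVD lowest, and mutant IVD and control vertebrae, between them, differed by less than their spread.

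Mutant vertebrae differed from control vertebrae in Cdh19 by 1.29 (standard error 0.45, adjusted p = 0.998 by limma). Mutant vertebrae 2, at 2.46, carried much of this difference, which was 0.77 (standard error 0.39) without it. Mutant IVD differed from control IVD by 0.84 (standard error 0.42), and the interaction was -0.45 (standard error 0.62). Mutant IVD differed from mutant vertebrae by -1.40 (standard error 0.42, adjusted p = 0.359 by limma), and by -0.88 (standard error 0.37) without mutant vertebrae 2. Without the 4 arrays rich in liver transcripts the last difference was -0.99 (standard error 0.53). In the control mice, IVD minus vertebrae was -0.87, -1.42 and -0.57. Because these groups did not overlap, any pairing of the arrays would put IVD lower in each mouse. With the mouse as a random block in the control arrays, limma gave -0.95 (standard error 0.18, adjusted p = 0.156), and 42 probe sets passed in that fit, none of them of these 6 genes.

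S100b gave nearly the same pattern in its 2 probe sets, which correlated with r = 0.97 over the 13 arrays. In 1419383_at it had values of -1.05, -0.12, -0.00 and -1.64 in mutant IVD, against -1.46, 0.30 and 0.06 in control IVD. In mutant vertebrae it had 0.42, 1.57 and 0.92, against -0.27, 1.36 and 0.00 in control vertebrae. In 1434342_at it had -0.59, 0.05, -0.35 and -2.07 in mutant IVD, against -1.37, 0.45 and -0.07 in control IVD, and 0.43, 1.57 and 0.80 in mutant vertebrae, against -0.19, 0.99 and 0.00 in control vertebrae. Every mutant IVD array was below every mutant vertebrae array in both probe sets, as was the case for 3.21% of all probe sets, and the control tissues overlapped. Mutant IVD averaged -0.70 ± 0.78 (SD, n = 4) and mutant vertebrae 0.97 ± 0.58 (SD, n = 3) in 1419383_at. The difference was -1.67 (standard error 0.55, adjusted p = 0.403 by limma) in 1419383_at and -1.68 (standard error 0.54, adjusted p = 0.399) in 1434342_at. Mutant vertebrae had the highest mean and mutant IVD the lowest, with the control groups between them, and no neighbouring groups in this order differed beyond their spread.

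Between the control tissues S100b differed by -0.73 (standard error 0.58) in 1419383_at and by -0.60 (standard error 0.58) in 1434342_at. Control IVD 1 was the low array, and without it the differences were -0.19 and -0.08. Mutant against control IVD differed by -0.33 and -0.41 (standard errors 0.55 and 0.54), and without mutant IVD 4, the lowest array, by -0.02 and 0.034. Mutant against control vertebrae differed by 0.61 and 0.67 (standard errors 0.58 each). The interaction was -0.94 and -1.08 (standard errors 0.80 each), so a different effect of genotype in the tissues was not shown.

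**Figure D2:**
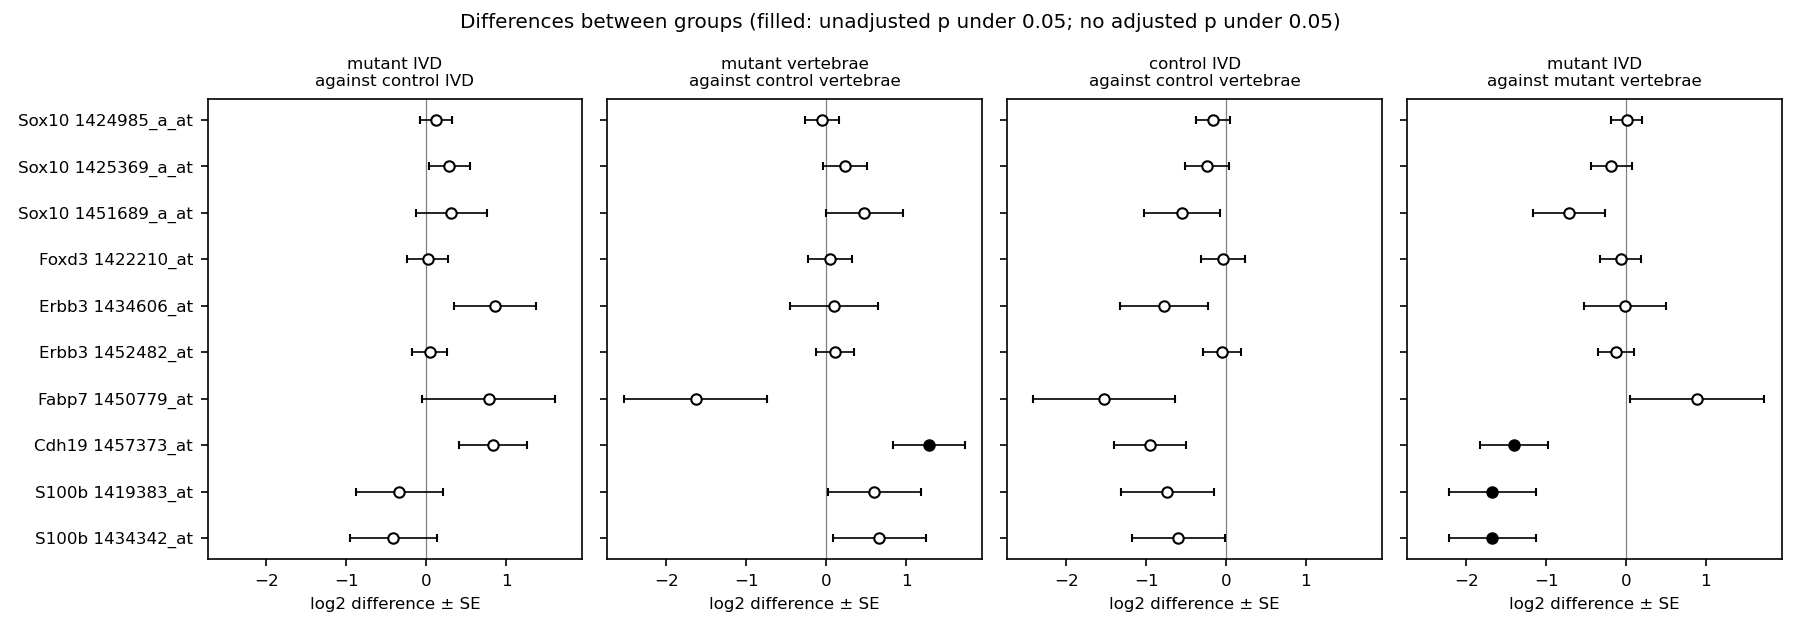
Log2 difference between groups with its standard error (horizontal axis) for each of the 10 probe sets (vertical axis) in 4 comparisons, from limma. Filled points have an unadjusted p under 0.05: Cdh19 at 1.29 in mutant against control vertebrae, and Cdh19 at -1.40 and S100b at -1.67 and -1.68 in mutant IVD against mutant vertebrae.

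The 6 genes did not vary together. Over the 13 arrays, as a description, Cdh19 and S100b correlated with r = 0.72 and 0.74 for the 2 S100b probe sets, and Fabp7 and Erbb3 1434606_at with r = 0.76. Fabp7 and Cdh19 had r = -0.09, and Fabp7 and S100b had 0.02 and -0.08. Foxd3 followed Sox10 in 1424985_a_at (r = 0.79) and 1425369_a_at (0.72) but not Fabp7 (-0.05) or Cdh19 (-0.09). The arrays share tissue, neighbouring cells and amplification, so that such values are not evidence of a link between genes.

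**Figure D3:**
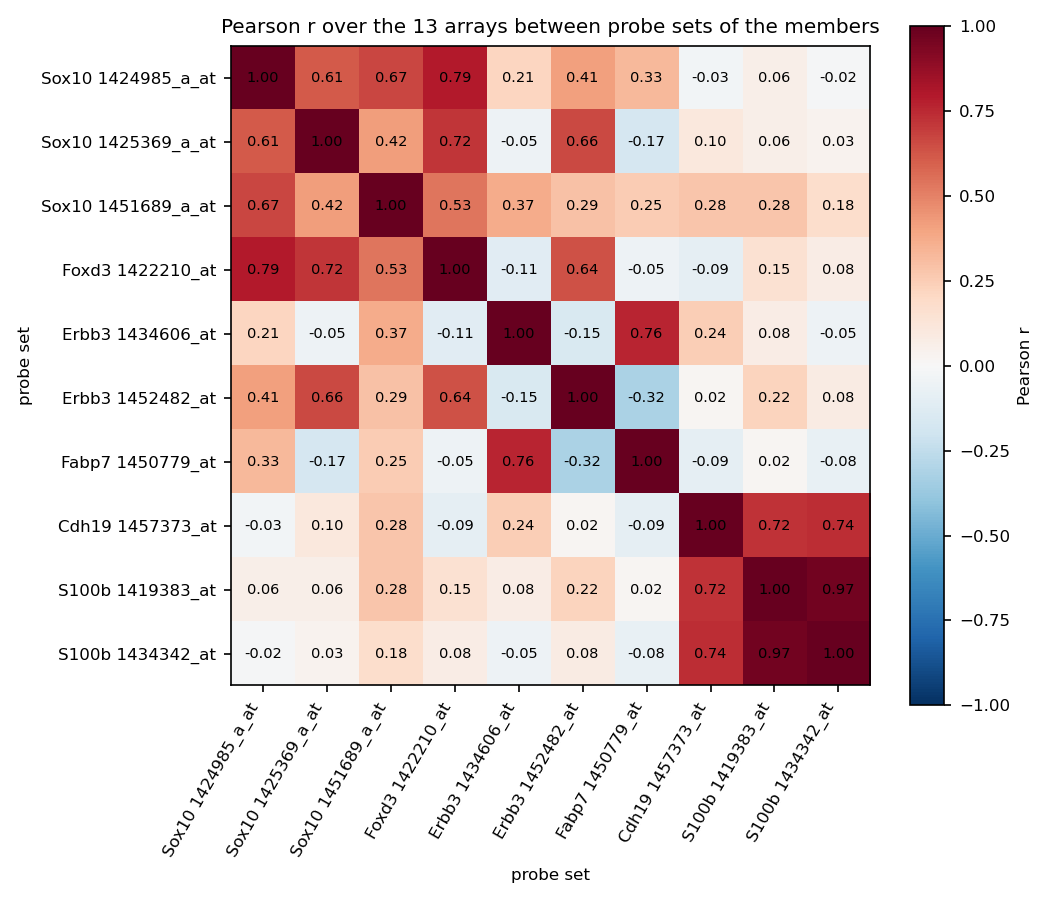
Pearson r over the 13 arrays between each pair of the 10 probe sets (both axes), with the value in each cell. The S100b probe sets pair with each other (0.97) and with Cdh19 (0.72 and 0.74), Fabp7 pairs with Erbb3 1434606_at (0.76), and the Erbb3 probe sets do not pair with each other (-0.15).

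S100b ran with the genes of cartilage. The mean of its probe sets correlated with the mean of 13 cartilage genes, Col2a1, Acan, Matn1 and Col9a1 first among them, with r = 0.93 over the 13 arrays, and with r = 0.98 in the 6 vertebrae arrays and 0.85 in the 7 IVD arrays. Without the 2 IVD arrays farthest from the median, control IVD 1 and mutant IVD 4, the value in IVD was 0.35, so it rested on those arrays. Those arrays also had the highest skeletal muscle means (2.29 and 2.55). With the skeletal muscle mean the S100b probe sets had r = -0.75 and -0.83 over the 13 arrays. The part of muscle tissue in the S100b values was not tested. With the mean of 14 other Schwann cell lineage genes S100b had r = -0.10. The genes most like S100b over the arrays were Csgalnact1 (r = 0.98), Hapln1 (0.96) and Edil3 (0.96), and Matn3 (0.95), a matrilin of cartilage, was among the first 10. Hapln1 encodes the link protein of cartilage matrix and Csgalnact1 an enzyme of chondroitin sulphate synthesis. The cartilage mean ran from -1.44 to 0.04 in mutant IVD, from -1.11 to -0.06 in control IVD, from 0.52 to 1.03 in mutant vertebrae and from 0.02 to 0.79 in control vertebrae, and its part in the S100b difference was not tested.

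Cdh19 correlated with the cartilage mean with r = 0.71 over all arrays, 0.88 in vertebrae and 0.19 in IVD, where mutant IVD 2 was high in Cdh19 (0.85) and low in the cartilage mean (-0.74). Without the 2 arrays farthest from the Cdh19 median in each tissue these were 0.72 in vertebrae and 0.55 in IVD. Its closest genes were A330076H08Rik (r = 0.95) and Sugct (0.94), and En1, a homeobox transcription factor, had 0.90. Over all arrays Fabp7 had r = 0.65 with the mean of the other Schwann cell lineage genes and 0.62 with the neuronal mean. Without mutant IVD 3 and mutant vertebrae 1 these were 0.87 and 0.68. With the neuronal mean Fabp7 had r = 0.97 in IVD and 0.32 in vertebrae. Without mutant IVD 2 and mutant IVD 3 the value in IVD was 0.80, and without mutant vertebrae 1 and control vertebrae 3 the value in vertebrae was -0.058. Acot7, a thioesterase found in neurons (r = 0.89), and Ptbp2, the neuronal splicing factor (0.85), were the genes most like Fabp7. Over all arrays Erbb3 1434606_at had r = 0.67 with the mean of the other Schwann cell lineage genes and 0.52 with the neuronal mean. With the neuronal mean it had r = 0.94 in IVD and -0.22 in vertebrae. Without the 2 arrays farthest from the Erbb3 median in each tissue it was 0.70 in IVD (without mutant IVD 3 and mutant IVD 4) and 0.69 in vertebrae (without mutant vertebrae 1 and mutant vertebrae 3), so the sign in vertebrae rested on those 2 arrays.

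**Figure D4:**
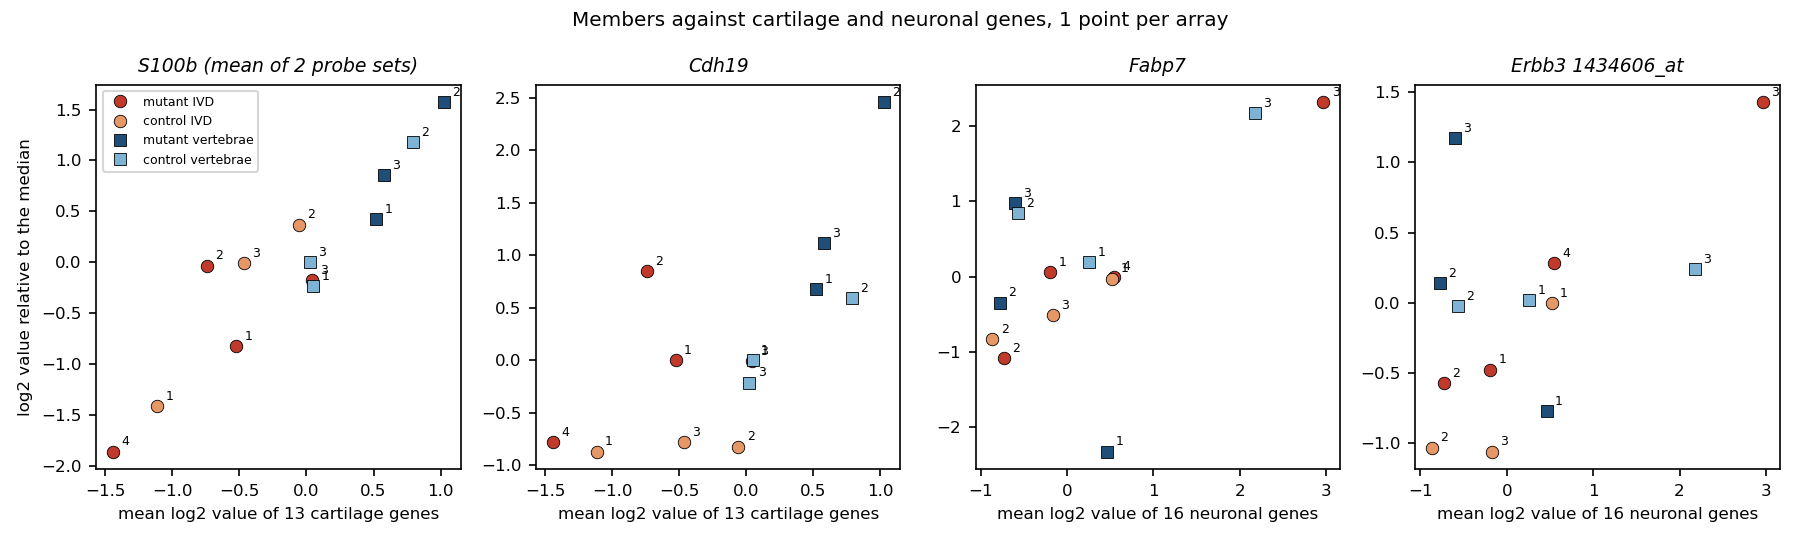
Log2 value of S100b, Cdh19, Fabp7 and Erbb3 1434606_at (vertical axes) against the mean log2 value of 13 cartilage or 16 neuronal genes (horizontal axes), 1 point for each of the 13 arrays, numbered within its group. S100b follows the cartilage mean (r = 0.93), and mutant IVD 3 and control vertebrae 3 lie far to the right of the neuronal axis and are the highest in Fabp7 (2.32 and 2.17).

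Sox10, as the mean of its 3 probe sets, was most like Dennd6b (r = 0.95 over 13 arrays, 0.92 without the 2 arrays farthest from the median, control vertebrae 3 and mutant vertebrae 1). Next came Fcgr2b (0.93 and 0.83), Phf21b (0.93 and 0.83), Acr (0.92 and 0.82), Map3k9 (0.92 and 0.80), 4933407L21Rik (0.92 and 0.80), B230209E15Rik (0.92 and 0.81), Rph3a (0.92 and 0.84), Cdh23 (0.92 and 0.86) and Atp10b (0.92 and 0.81). None of these 10 is on the list of Schwann cell lineage genes. Their SD over the arrays was at most 0.39. With the mean of 14 other Schwann cell genes Sox10 had r = 0.74, or 0.78 without those 2 arrays. This was not particular to that list. With the genes of spinal cord progenitors and radial glia it had r = 0.84, or 0.72 without those arrays. With the neuregulin ligands and ErbB receptors it had 0.74 (0.82), and with the melanoblast genes 0.72 (0.59). Foxd3 was most like Lce1d (0.98), Tmem266 (0.98) and Olfr544 (0.97), an epidermal gene, a membrane protein gene and an olfactory receptor gene.

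Of 14 other Schwann cell lineage genes, 11 were higher and 3 lower in mutant than in control IVD, with a median difference of 0.26 against 0.04 over all 18193 genes. In 4 of them a probe set reached an unadjusted p under 0.05, as in 3.52% of all genes in this direction, and none passed the adjusted test. These were chosen after their values were seen: Sox2 (1.35), Mbp (1.23 in 1456228_x_at), Ptprz1 (0.45) and Egr2 (0.36 in 1427683_at). Sox2 keeps Schwann cells immature and is also a spinal cord progenitor gene, Mbp encodes a protein of compact myelin, and Egr2 drives myelination. Sox2 had values of 0.00, 0.00, 1.79 and 0.80 in mutant IVD, against -0.54, -0.93 and -0.63 in control IVD, as the mean of its probe sets. Mutant IVD 3, the array richest in neuronal transcripts, was also highest in Pou3f1 (1.13), a transcription factor of promyelinating Schwann cells and of neurons, and in Ngfr (0.69), the neurotrophin receptor of neural crest cells.

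In mutant against control vertebrae 6 of the 14 were higher and 8 lower (median -0.03, and 0.03 over all genes), and none reached an unadjusted p under 0.05. Control IVD was below control vertebrae in 13 of 14 (median -0.20, and -0.01 over all genes), again with none at an unadjusted p under 0.05. Gfra3, the artemin co-receptor of sensory neurons and Schwann cell precursors, differed by -0.28 there, with control vertebrae 3 alone standing high (0.82). In mutant IVD against mutant vertebrae 9 were higher and 5 lower, with a median of 0.12 and 0.00 over all genes. Ptprz1 (0.43 and 0.54 in 2 probe sets) was on the higher side and Mbp (-0.95 in 1425263_a_at) and Mal (-0.51), a myelin proteolipid, on the lower side at an unadjusted p under 0.05, where 7.71% of all genes were higher and 5.69% lower at that p. The probe sets of Mbp thus pointed to opposite sides in different comparisons.

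None of the partners of Erbb3 passed the adjusted test. Of 6 neuregulin ligands and ErbB receptors, 5 were higher and 1 lower in mutant than in control IVD (median 0.16). In mutant against control vertebrae 3 were on either side (median -0.00). Over all genes these medians were 0.04 and 0.03. Erbb2, the kinase partner of Erbb3, had values of 0.08, -0.01, 0.69 and -0.45 in mutant IVD, against -0.89, 0.17 and 0.00 in control IVD. Nrg1, the axonal ligand, was highest in mutant IVD 3 (1.17), and in the other arrays ran from -0.26 to 0.37. Of 14 transcription factors of the neural crest, 11 were higher and 3 lower in mutant than in control IVD (median 0.17), where 10582 of all 18193 genes were higher. In mutant against control vertebrae 10 were higher and 4 lower (median 0.21), where 10211 of all genes were higher. Sox5 and Sox9 of this list are also on the cartilage list. In each comparison 1 of 14 was higher at an unadjusted p under 0.05, against 3.52% of all genes in IVD and 2.71% in vertebrae. These were Tfap2a in IVD (0.67 in 1426048_s_at) and Msx1 in vertebrae (0.49), named after their values were seen. Tfap2b, which also marks sympathetic neurons, stood at 3.05 in control vertebrae 3 and at 1.55 in mutant vertebrae 3, against -0.55 to 0.82 in the other arrays.

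Markers of other cells that the captures could hold gave the following. The 16 neuronal genes had a median difference of 0.74 in mutant against control IVD and -0.77 in mutant against control vertebrae, with 16 of 16 on the same side in each, and array means from -0.73 to 2.97 in mutant IVD, from -0.87 to 0.52 in control IVD, from -0.77 to 0.46 in mutant vertebrae and from -0.57 to 2.18 in control vertebrae. Fabp7 had the same signs in those comparisons. Tubb3, a neuronal tubulin, stood at 5.27 in mutant IVD 3 and 4.59 in control vertebrae 3. Isl1, a transcription factor of sensory, sympathetic and motor neurons, stood at 4.35 and 4.02 in the same arrays, and Pou4f1, a sensory neuron factor, at 3.16 in mutant IVD 3 and 0.60 in control vertebrae 3. The 12 genes of spinal cord progenitors and radial glia, which also express Fabp7, had array means from 0.02 to 0.27 in mutant IVD, from -0.27 to 0.01 in control IVD, from -0.07 to 0.44 in mutant vertebrae and from -0.17 to 0.20 in control vertebrae. Of these 12, 3 had a probe set higher in mutant than in control IVD at an unadjusted p under 0.05, against 3.52% of all genes, and none passed the adjusted test. They were Sox2 (1.35), Nkx6-1 (0.81) and Msi1 (0.56), named after their values were seen. Hes5 and Msi1 had a probe set lower in IVD than in vertebrae at that p, both in control mice (1.84% of all genes) and in mutants (5.69%). For Msi1 it was the same probe set (1444306_at). For Hes5 it was 1456010_x_at in control mice and 1423146_at in mutants. Olig2 and Pax6 ran from -0.22 to 0.74 and from -0.19 to 0.47 over the arrays, and Sox2 from -1.01 to 1.79. The 7 melanoblast genes had array means from -0.21 to 0.55, highest in mutant vertebrae 1, and Dct ran from -0.34 to 0.37.

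The endothelial list, 10 genes, had a median difference of 0.31 in mutant against control IVD and -0.23 in mutant against control vertebrae. The 8 erythroid genes had -0.27 and -1.05 and the 10 skeletal muscle genes -0.05 and -0.11 in the same comparisons. The 14 peripheral neuron genes had 0.26 and -0.33. The small muscle medians hide 1 high array in each IVD group, mutant IVD 4 (mean 2.55) and control IVD 1 (2.29). The 8 disc genes, Pax1, Pax9, Fmod and Gdf5 first among them, had a median difference of 1.27 in control IVD against control vertebrae and 1.34 in mutant IVD against mutant vertebrae, and 4 and 5 of the 8 had a probe set higher at an unadjusted p under 0.05, against 2.37% of all genes between the control tissues and 7.71% between the mutant tissues. Of the 6 Schwann cell and neural crest genes, 6 had lower means in control IVD than in control vertebrae (median -0.54), where 9493 of all 18193 genes were lower. The Foxd3 means there were 0.05 and 0.08. Lower as well were 16 of 16 neuronal, 14 of 14 peripheral neuron, 8 of 8 liver and 8 of 8 erythroid genes. So were 9 of 10 endothelial and 10 of 13 cartilage genes (cartilage median -0.79), but only 1 of 8 disc and 0 of 10 skeletal muscle genes. Without control vertebrae 3, rich in neuronal transcripts, 3 of the 10 probe sets were higher in control IVD, against 0 with all arrays. The median difference over all probe sets was -0.013 without that array and -0.018 with it. In the mutants 5 of the 6 genes were lower in IVD than in vertebrae (median -0.18), Fabp7 being the exception. Of all 18193 genes 9075 were lower there, with a median of 0.00. In that comparison 13 of 13 cartilage genes were lower (median -1.13) and 16 of 16 neuronal genes were higher (median 0.90).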

How the data were processed

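Gene expression was measured in 13 laser-captured samples on Affymetrix whole-genome mouse arrays, from 50 ng of total RNA each after 2 rounds of amplification. The authors subtracted background and normalized with RMA in GeneSpring, and the deposited log2 values are centred, with a median of 0 over the 13 arrays for each of 45101 rows. No level, and so no signal over background, can be read from them, and precision is limited by the number of arrays. From these values, 64 control probe sets were left out and the 4 groups were fitted together with limma 3.58.1 in R 4.3.3 (lmFit and eBayes, two-sided, no block) over 45037 probe sets, with Benjamini-Hochberg adjustment over all of them and a threshold of 0.05. Of these probe sets 34945 carry 1 gene name, 932 several and 9160 none, and only the first kind was named. A gene mean is the mean of all its probe sets, and correlations, computed in Python 3.11.15, are Pearson's r with no test.

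The members, the 13 gene lists (140 of 149 genes measured) and the rules were chosen with earlier results of these data known. Genes named are the 6 members, the first 4 measured genes of each list where described, the 10 genes most like Sox10, and Tgfbr2. Genes most like the other members, and list genes named for their p, were chosen after their values were seen. Other genes that the rule names are not reported here. Groups follow the sample titles. By the design text the control tissues share mice, but which numbers pair is not given. After group means were removed, control arrays of the same number correlated with r = 0.80, 0.57 and 0.57 across probe sets, so the number was taken as the mouse (consensus correlation 0.538). Mutant arrays of the same number had -0.40, 0.24 and -0.15. Replicates are biological by the series' description. The fit was tested on simulated data. As alternatives, the fit was repeated on the compared groups alone, with replicate blocks, after quantile normalization, with array weights, with a robust variance trend, by the methods' unequal-variance test, and without single arrays or the neuronal or liver arrays.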

Additional observations from a re-analysis of the deposited data

How the results depend on the processing

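No probe set of the 6 genes passed the adjusted test under any alternative (smallest adjusted p = 0.145 by limma). Of 624 single differences recomputed for the 6 most variable probe sets, 606 kept their sign. Many of these could not change it, so the count does not measure robustness. The compared groups alone, the robust variance trend, the unequal-variance test and the random block leave the difference of group means as it was. Leaving out an array of another group does so too. Counts at an unadjusted p under 0.05 moved, and so the count in a comparison rests on the setting. In mutant against control IVD it was 0, where 1411 of all 45037 probe sets reached that p. It was 1 with the compared groups alone (1710 of all), with the fixed replicate block (1576) and with array weights (3481). On leaving out each array it was 0 to 1 (907 to 2035 of all). In mutant against control vertebrae it was 1 (1177 of all), and 3 with the fixed replicate block (1368) and 0 by the unequal-variance test (614). It was 0 without the neuronal arrays (1142), 2 without the liver arrays (791) and 0 to 2 on leaving out each array (788 to 2102). In control IVD against control vertebrae it was 0 (1105 of all). It was 3 with the compared groups alone (1781), with the fixed replicate block (1428) and with the random one (4862). It was 1 with quantile normalization (1885), 2 with array weights (3267) and 0 to 1 on leaving out each array (674 to 2132). In mutant IVD against mutant vertebrae it was 3 (3634 of all), 2 by the unequal-variance test (1877), and 4 without mutant IVD 3 (3740) or the neuronal arrays (3641). The added probe set was Sox10 1451689_a_at. It was 3 in every other setting. Without mutant IVD 3, 177 of all probe sets passed the adjusted test there, against 7, none of them of these 6 genes. The interaction had 0 (619 of all), and 1 with the fixed replicate block (752). On leaving out each array it had 0 to 1 (380 to 1025). The paired fits changed no adjusted call of these genes, and for the mutants the array number is not shown to pair tissues.

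The differences that reversed were smaller than their standard errors, except that of Fabp7. Sox10 1451689_a_at in mutant against control IVD was -0.0039 without the neuronal arrays and -0.29 without the liver arrays (-0.0039 to 0.66 on leaving out each array), and its interaction was 0.030 with quantile normalization and 0.45 with array weights (-0.48 to 0.18 on leaving out each array). Erbb3 1434606_at ran from -0.39 to 0.58 in mutant against control vertebrae and from -0.49 to 0.48 in mutant IVD against mutant vertebrae on leaving out each array. Fabp7 in mutant IVD against mutant vertebrae was -0.089 with array weights. The Cdh19 interaction was 0.0021 without the liver arrays (-0.82 to 0.072 on leaving out each array). S100b 1434342_at in mutant against control IVD was 0.034 with the fixed replicate block (-0.93 to 0.034 on leaving out each array). The median of the other Schwann cell genes was 0.17 without the neuronal arrays in mutant against control vertebrae (-0.20 to 0.17 on leaving out each array). Without the liver arrays it was -0.40 in control IVD against control vertebrae and -0.13 in mutant IVD against mutant vertebrae. The median of the neural crest transcription factors was -0.035 in mutant against control IVD without the liver arrays. Read by the probe set with the largest SD it was -0.36 between the control tissues and -0.37 between the mutant tissues. The cause was not tested. Probe sets of low signal could not be filtered, because centred values hold no level.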
